A study of Caenorhabditis elegans with 15 samples.

Results

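Mitochondrial ribosomal proteins of Caenorhabditis elegans were followed through the end of larval life: the late stage of the last larval instar (L4), the sleep-like quiescence that precedes the last moult (L4-lethargus) and the Adult stage. The genes were those whose symbol is mrpl- or mrps- followed by a number, each read from a probe set annotated to that gene alone and, where there were several, from the one with the highest mean over the 15 arrays. This gave 59 of 17118 genes, 34 of the large subunit (mrpl) and 25 of the small subunit (mrps). The reference annotation holds 71 symbols of this form, and the other 12 (mrpl-13, mrpl-21, mrpl-36, mrpl-39, mrpl-42, mrpl-46, mrpl-53, mrpl-58, mrps-7, mrps-18A, mrps-24 and mrps-30) were not analysed here.

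The mitochondrial ribosome sits in the matrix and translates the few messages encoded by mitochondrial DNA, which specify core subunits of the oxidative phosphorylation complexes. Its RNAs come from mitochondrial DNA, whereas its proteins are encoded in the nucleus, made by cytosolic ribosomes and imported. In C. elegans, knockdown of mitochondrial ribosomal genes such as mrps-5 lengthens lifespan and switches on the mitochondrial unfolded protein response, and growth of the germline is a period of extensive mitochondrial DNA replication. Many of the proteins are counterparts of bacterial ribosomal proteins and carry their numbers, and the others are specific to mitochondria.

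Whole-animal RNA was measured on Affymetrix C. elegans arrays after amplification, with 5 arrays per stage, each from a separate pool of 20 wild-type N2 hermaphrodites picked by hand. L4 animals were taken 42 h after arrested first-stage larvae were fed and were moving and feeding. L4-lethargus animals were taken at 45 to 50 h, 30 to 40 min after pharyngeal pumping had stopped. The third group, Adult, were young adults, and no treatment, mutation or transgene was used at any stage. Animals grew at 20 °C on DA837 bacteria and were picked at room temperature. The pools gave 22.3 ± 7.0 ng of RNA at L4, 18.6 ± 3.5 ng at L4-lethargus and 75.3 ± 10.3 ng in Adult (SD, per the labels), so equal array input stood for different numbers of animals. Every value is an expression level on the log2 scale, so that a difference of 1 is a doubling. A gene was called changed where limma's p, multiplied by 2 as in the series' design, had a Benjamini-Hochberg adjusted value of 0.05 or less among 22548 probe sets, with no minimum fold. Because whole animals were used, fewer cells of a type and less RNA per cell cannot be told apart.

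The cuticle collagens col-19 and dpy-7 set L4 apart from both later stages, but did not tell L4-lethargus from Adult. The adult cuticle collagen col-19 was at 7.11 ± 0.26 in L4, 13.19 ± 0.25 in L4-lethargus and 13.36 ± 0.30 in Adult (SD, n = 5 each), and the larval collagen dpy-7 was at 12.24 ± 0.32, 6.90 ± 0.59 and 6.78 ± 0.10 in the same order. The array median was 7.47 ± 0.05 in L4, 7.52 ± 0.02 in L4-lethargus and 7.26 ± 0.04 in Adult, so centring each array on its median moved all differences by -0.04 for L4-lethargus minus L4, by 0.25 for Adult minus L4-lethargus and by 0.21 for Adult minus L4. Both versions are given for the main counts, and other values are as deposited unless stated. Adult replicate 2 stood apart: its mean correlation with the other Adult arrays was 0.987, against 0.994 to 0.995 for the others. L4-lethargus replicate 1 was next, at 0.988. The 3′ minus 5′ difference of the ubiquitin control, a measure of RNA integrity, was 4.55 to 4.81 in L4, 4.20 to 4.51 in L4-lethargus and 4.11 to 4.56 in Adult, and that of GAPDH was 0.02 to 0.32, -0.04 to 0.15 and 0.17 to 0.49. L4-lethargus thus overlapped neither L4 for ubiquitin nor Adult for GAPDH, and the part of RNA quality in the stage differences was not tested.

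Adult replicate 2 was low for many of the mitochondrial ribosomal genes. It was the lowest of the 5 Adult arrays for 38 of the 59 members, and for 23.7% of all genes. It lay more than 0.5 below the median of the other 4 Adult arrays for 15 members, or 25.4%, against 8.93% of all genes, and more than 0.5 above it for 1 member, mrpl-45 (1.69%, against 11.1% of all genes). Its median difference from that median was -0.19 over the members and 0.13 over all genes. The lowest relative to the others was mrps-22, a mitochondria-specific protein of the small subunit, at 9.06 in Adult replicate 2 and 10.73 to 10.82 in the other Adult arrays. Next came mrpl-24, counterpart of bacterial L24, at 9.37 against 11 to 11.18, and mrpl-30, at 10.36 against 11.77 to 11.95. The 2 probe sets of mrpl-4 were low by the same amount, 0.95 below the median of the other 4. The 3′ minus 5′ difference of the array's ubiquitin control was 4.56 on Adult replicate 2 and 4.11 to 4.38 on the other Adult arrays, and for GAPDH it was 0.28 against 0.17 to 0.49. Their part in the low values was not tested, and counts are given below with and without Adult replicate 2. Because this array was low for members in particular, leaving it out raises most of their Adult means and can narrow their spread. That need not hold for genes at large, so member counts without this array are descriptive only, also beside a background.

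Mitochondrial ribosomal messages were among the more abundant on the arrays. The median member lay at the 90.3rd percentile of genes by mean level, 53 of 59 lay above the 75th percentile, and no stage mean of any member was below 5.56, the level under which 95% of values from probe sets for foreign sequences lay. Levels of different probe sets are not strictly comparable, so these ranks describe signal rather than molecules. The highest member was mrps-14, counterpart of bacterial S14 in the small subunit. It was at 12.43, 12.37, 12.45, 12.41 and 12.40 in L4, at 12.43, 12.43, 12.42, 12.34 and 12.34 in L4-lethargus, and at 12.56, 12.18, 12.52, 12.49 and 12.53 in Adult. The stages overlapped and it was called in no comparison on the deposited values. The lowest member was mrps-31, a mitochondria-specific small-subunit protein, with a mean of 6.23, and after it came mrpl-45 at 6.46. Across the 3 stage means the members moved little: the median range was 0.27, against 0.61 over all genes, and 0 of 59 members had a range of 1 or more, against 30.9% of all genes. Centred, the median range was 0.48, against 0.67, and 2 members had a range of 1 or more, against 33.1% of all genes.

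**Figure D1:**
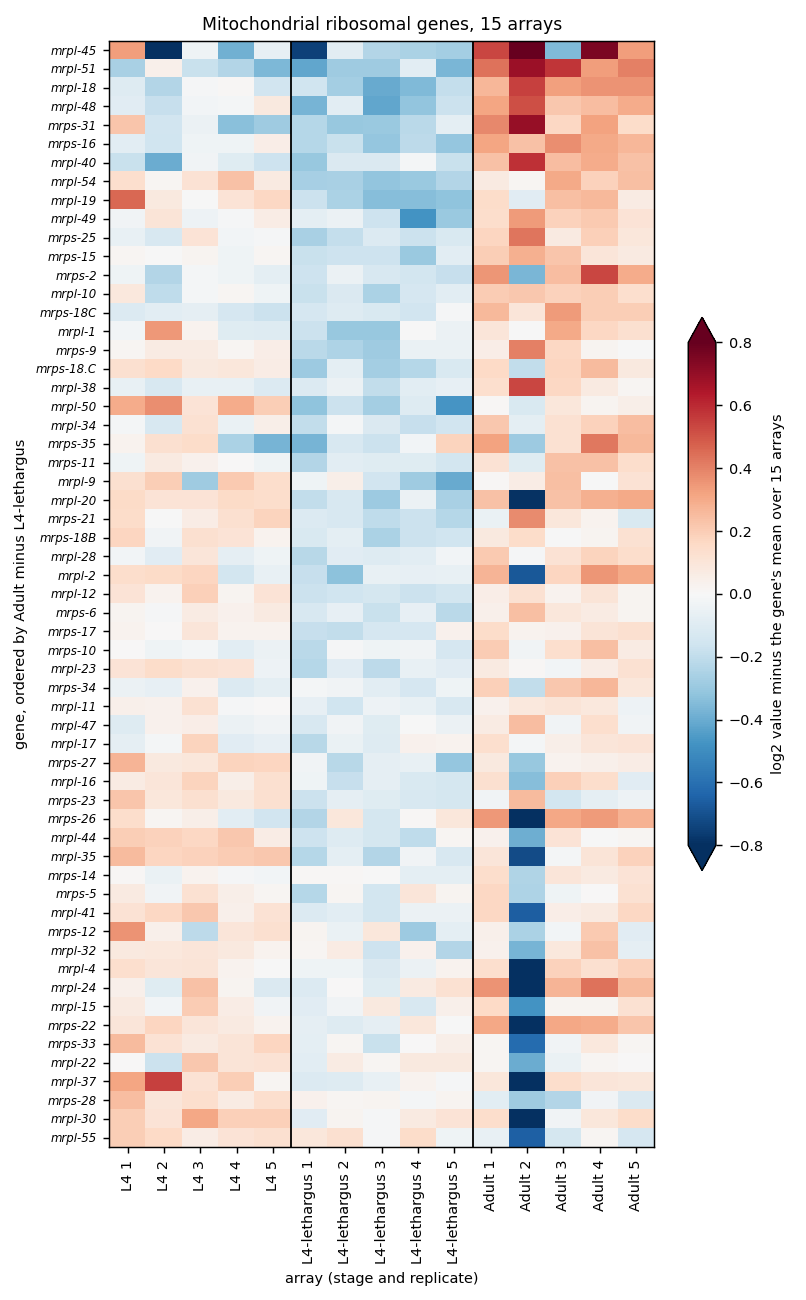
Log2 value as deposited minus the gene's own mean over 15 arrays (colour, limited to ±0.8) for the 59 mitochondrial ribosomal genes (rows, ordered from the highest to the lowest Adult minus L4-lethargus difference) on each array (columns, by stage and replicate). Most rows are blue in the 5 L4-lethargus columns, and the Adult replicate 2 column holds most of the darkest blue cells. The cell of mrpl-45 on L4 replicate 2 is as dark, at the colour limit.

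L4-lethargus was the low point. On the deposited values 48 of the 59 members (81.4%) had their lowest stage mean in L4-lethargus, where 29.7% of all genes did, and none had its highest mean there. After centring it was 58 of 59 (98.3%), against 41.9% of all genes. The highest mean was in Adult for 32 members (54.2%, against 48.1% of all genes) and in L4 for 27 (45.8%, against 29.3%) as deposited. Centring placed it in Adult for 51 (86.4%, against 61.5%), so whether L4 or Adult was the high stage depended on the scaling. The median over the members on each array was 10.83 to 10.94 in L4, 10.65 to 10.82 in L4-lethargus and 10.78 to 11.02 in Adult. All 5 L4-lethargus arrays were below all 5 L4 arrays, and Adult replicate 2 was the 1 Adult array that overlapped L4-lethargus. After centring the ranges were 10.82 to 10.91, 10.58 to 10.71 and 10.88 to 11.21, and L4-lethargus overlapped neither of the other stages.

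**Figure D2:**
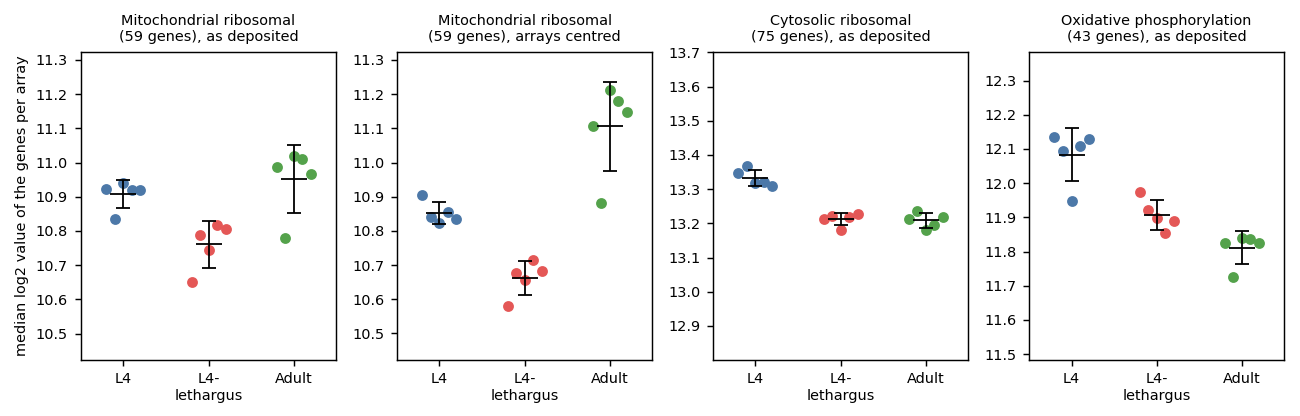
Median log2 value per array (points, 5 per stage) with the stage mean and SD (black bars), for the mitochondrial ribosomal genes as deposited and with arrays centred, and for cytosolic ribosomal and oxidative phosphorylation genes as deposited. Each vertical axis spans 0.9 log2 and does not start at 0. The mitochondrial ribosomal median is lowest in L4-lethargus and, on Adult replicate 2, stands at 10.78 against 10.97 to 11.02 on the other Adult arrays.

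The L4-lethargus against L4 comparison asks what differs as animals enter quiescence, and the series' design names it. In L4-lethargus 11 of the 59 members were lower and 0 higher (18.6% lower), where 15.6% of all genes were called lower and 16% higher. Of the members 57 lay at or above the limit of the dim-probe filter given under the processing. Of all genes at or above that limit, 19.4% were lower and 19.8% higher, or 22.1% and 18.3% centred. By limma's unadjusted p under 0.05, 0 members were higher and 23 lower, and limma permutation p-values called 0 and 11. The share of all genes was not counted for either of these p-values, so these counts have no background. At the adjusted p the share called lower was near the background, while the direction was one-sided. Of the 59 differences 57 were below 0, against 49.9% of all genes. The median difference was -0.15 (quartiles -0.23 and -0.07), a fold of 1.11, against 0.001 over all genes. Centred, 17 were lower (28.8%, background 17.7%), all 59 differences were below 0 (all genes 56.9%) and the median was -0.19 against -0.04. The arrays of the 2 stages did not overlap for 25 members, each lower in L4-lethargus, and 14.6% of all genes were separated in that direction.

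The lower members came from both subunits. mrpl-50, a mitochondria-specific large-subunit protein, was at 10.46, 10.61, 10.51, 10.68 and 10.31 in L4-lethargus, against 11.08, 11.15, 10.89, 11.08 and 10.98 in L4. Every L4-lethargus array was below every L4 array. It fell by 0.52 ± 0.08 (SE, 1.44-fold, adjusted p = 0.000178). mrpl-19, counterpart of bacterial L19, was at 9.77, 9.69, 9.60, 9.60 and 9.62 in L4-lethargus, against 10.40, 10.02, 9.94, 10.05 and 10.11 in L4. Its groups were separate too, and it fell by 0.45 ± 0.09 (adjusted p = 0.00226). mrpl-54, another large-subunit protein without a bacterial number, was at 8.46 to 8.54 in L4-lethargus, against 8.79 to 9.01 in L4. It fell by 0.39 ± 0.07 (adjusted p = 0.000795), with the L4-lethargus arrays within 0.1 of each other.

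Of the small subunit, mrps-18.C, 1 of 3 measured counterparts of bacterial S18, was at 10.19, 10.40, 10.21, 10.25 and 10.36 in L4-lethargus, against 10.61, 10.64, 10.56, 10.57 and 10.54 in L4. The groups did not overlap and it fell by 0.30 ± 0.08 (adjusted p = 0.0175). mrps-27, whose mammalian counterpart has pentatricopeptide repeats, was at 9.99 to 10.27 in L4-lethargus, against 10.38 to 10.57 in L4, and fell by 0.30 ± 0.09 (adjusted p = 0.0263). mrpl-44, whose mammalian counterpart has a ribonuclease III-like domain, was at 11.17 to 11.39 in L4-lethargus, against 11.43 to 11.59 in L4, and fell by 0.28 ± 0.09 (adjusted p = 0.0399). Its other 2 probe sets differed by -0.07 and -0.15 and were not called, so that call rested on the probe set chosen. The remaining 5 members called lower were mrpl-12, mrpl-23, mrps-18B, mrps-21 and mrps-23, with differences of -0.23 to -0.27. mrpl-12 belongs to the stalk that contacts elongation factors, as its bacterial counterpart does, and was tightest: 11.36 to 11.39 in L4-lethargus, against 11.55 to 11.72 in L4.

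The count in this comparison depended on single arrays. Without Adult replicate 2, which belongs to neither stage and enters through the spread shared by all stages, it was 20 (33.9%, background 18.1%), or 27 centred (background 20.6%), and with L4-lethargus replicate 1 left out as well it was 16 (background 18%). It was 5 without L4 replicate 1 (background 14.6%), 7 without L4 replicate 4 (13.8%), 7 without L4-lethargus replicate 1 (15.3%) and 6 without L4-lethargus replicate 3 (13.5%). The calls of mrpl-50, mrpl-19, mrpl-54 and mrps-18.C held whichever array was left out. mrps-27 lost its call without L4 replicate 1, 4 or 5 or L4-lethargus replicate 2 or 5 (adjusted p up to 0.0833), and mrpl-44 lost its call under 10 of 15 omissions (up to 0.0976).

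Adult against L4-lethargus is the other comparison the design names, given here as Adult minus L4-lethargus. In Adult 29 of the 59 members were higher and 0 lower (49.2% higher), where 31% of all genes were called higher and 26.2% lower. Of all genes at or above the dim-probe limit, 37.7% were higher and 33.3% lower, or 49.5% and 25% centred. By limma's unadjusted p under 0.05, 32 members were higher and 2 lower, and permutation p-values called 30 and 0. For these p-values too the share of all genes was not counted. Differences were above 0 for 50 of 59 members, against 57.2% of all genes. The median was 0.22 (quartiles 0.06 and 0.31), a fold of 1.17, against 0.08 over all genes. Centred, 45 were higher (76.3%, background 53.7%) and 0 lower (background 19%), with a median of 0.48 against 0.34. Relative to the median of all genes the members' median was 0.14 higher, a gap that centring cannot change because it shifts every gene alike. Without Adult replicate 2, 39 were higher (66.1%, background 31.6%), and centred 57 were (background 53.8%). As that array was low for many members, these counts are descriptive only. With L4-lethargus replicate 1 left out too, 38 were as deposited (background 30.3%). Leaving out each array in turn gave 22 (without L4-lethargus replicate 1, background 28.9%) to 39 (without Adult replicate 2).

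The largest differences are given by array, first for the large subunit. mrpl-51, a mitochondria-specific protein, was at 8.47, 8.72, 8.61, 8.37 and 8.44 in Adult, against 7.62, 7.75, 7.75, 7.95 and 7.67 in L4-lethargus. It rose by 0.77 ± 0.09 (SE, 1.71-fold, adjusted p = 4.71e-06), with no overlap. mrpl-18, counterpart of bacterial L18, was at 10.50, 10.78, 10.56, 10.59 and 10.59 in Adult, against 10.07, 9.96, 9.83, 9.88 and 10.04 in L4-lethargus. It rose by 0.65 ± 0.08 (adjusted p = 4.44e-06). mrpl-48, part of the central protuberance in the mammalian mitochondrial ribosome, was at 8.95 to 9.25 in Adult, against 8.32 to 8.65 in L4-lethargus, and rose by 0.59 ± 0.09 (adjusted p = 3.26e-05). These groups were also separate.

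mrpl-45, whose mammalian counterpart lies at the polypeptide exit and tethers the ribosome to the inner membrane, had the largest difference and the widest spread. It was at 7.00, 8.05, 6.11, 7.22 and 6.80 in Adult, against 5.72, 6.38, 6.23, 6.21 and 6.19 in L4-lethargus. Adult replicate 3 lay inside the L4-lethargus range. Its difference of 0.89 ± 0.30 was called (adjusted p = 0.0321) but 7 of the 15 single-array omissions ended the call, and without Adult replicate 2 it was 0.64 ± 0.26 (adjusted p = 0.0893).

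In the small subunit, mrps-16, counterpart of bacterial S16, was at 11.16, 11.08, 11.22, 11.15 and 11.11 in Adult, against 10.62, 10.67, 10.54, 10.64 and 10.54 in L4-lethargus. The groups were far apart relative to their spread, and it rose by 0.54 ± 0.06 (adjusted p = 3.84e-06). Its other probe set rose by 0.60 (adjusted p = 1.1e-06). mrps-31 was at 6.62, 6.93, 6.40, 6.56 and 6.38 in Adult, against 6.01, 5.93, 5.94, 6.02 and 6.16 in L4-lethargus, and rose by 0.57 ± 0.12 (adjusted p = 0.00108). It is dim, near the 37th percentile of genes, but the groups did not overlap. The other 23 members called higher had differences of 0.18 (mrpl-23) to 0.46 (mrpl-40). Of the members with large falls in L4-lethargus, mrpl-50 rose by 0.28, mrpl-19 by 0.41, mrpl-54 by 0.44 and mrps-18.C by 0.29 in Adult, and both comparisons use the same L4-lethargus arrays. mrps-27 and mrpl-44 differed by 0.12 and 0.07 and were not called. The other probe sets of mrpl-44 differed by 0.41 (adjusted p = 0.00564) and 0.23 (adjusted p = 0.134), so for this gene the call depended on the probe set.

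**Figure D3:**
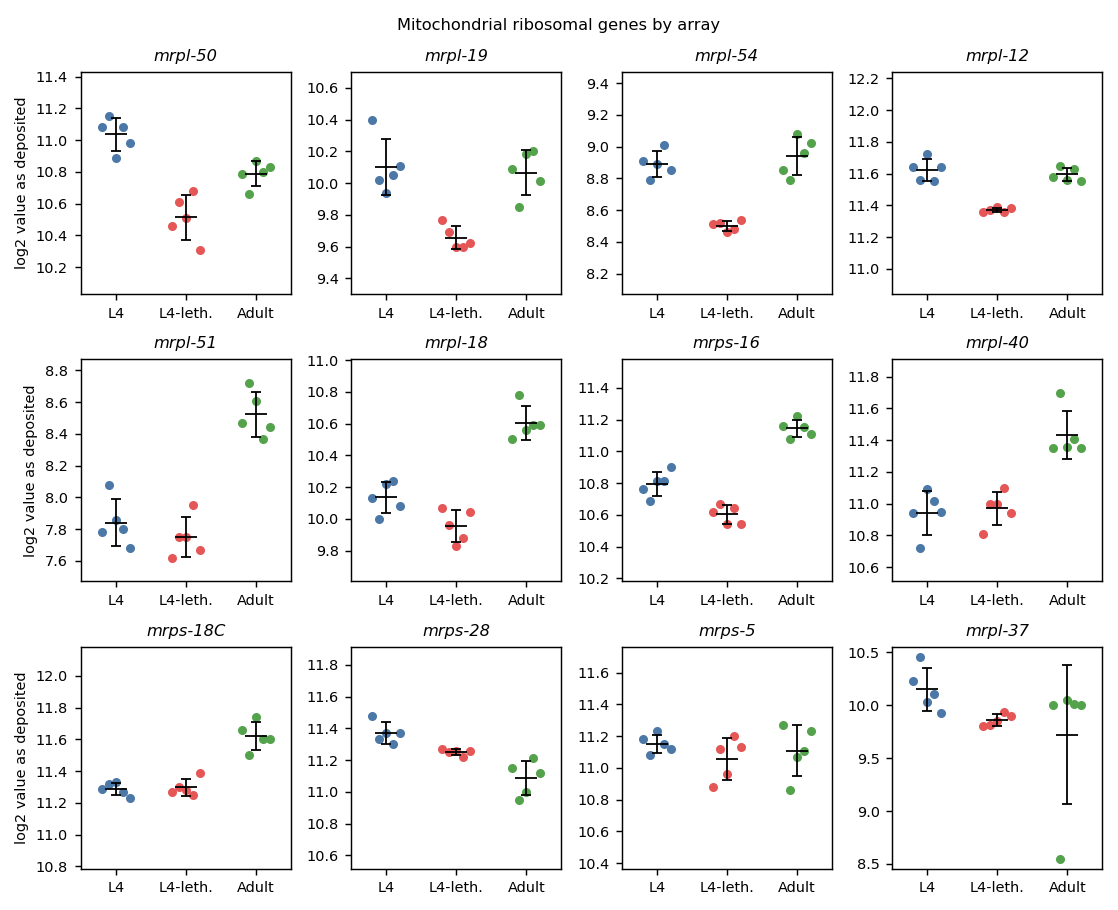
Log2 value as deposited on each array (points, 5 per stage, with stage mean and SD) for 12 mitochondrial ribosomal genes. Vertical axes differ between panels and do not start at 0. mrpl-50, mrpl-19, mrpl-54 and mrpl-12 dip in L4-lethargus, mrpl-51, mrpl-18, mrps-16, mrpl-40 and mrps-18C are highest in Adult, mrps-28 is lowest in Adult, and mrpl-37 has its lowest value, 8.55, in Adult replicate 2.

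Adult against L4 is not among the comparisons named in the design. On the deposited values 10 of the 59 members were higher and 3 lower in Adult (16.9% and 5.08%), fewer in each direction than the 30.8% and 28.7% of all genes. Of all genes at or above the dim-probe limit, 35.6% were higher and 36.5% lower, or 45.1% and 29.7% centred. The members' median difference was 0.03 (quartiles -0.10 and 0.17), against 0.08 over all genes, and 46 members were not called. Centred, 31 were higher (52.5%, background 49.3%) and 0 lower (background 22.6%), with a median of 0.24 against 0.29. By limma's unadjusted p under 0.05, 32 were then higher and 0 lower, again without a count over all genes. Without Adult replicate 2 the deposited counts were 18 higher (30.5%, background 30.9%) and 3 lower (background 29.8%). Without L4 replicate 1 only 1 was lower (background 28.2%). Centred without Adult replicate 2, 42 were higher (71.2%, background 49.3%). Counts without that array are descriptive only here too.

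The largest rises were again given by array, from the same Adult arrays as above. mrpl-51 was at 8.37 to 8.72 in Adult, against 7.68 to 8.08 in L4, and rose by 0.68 ± 0.09 (adjusted p = 1.64e-05). mrpl-40, like mrpl-48 a central-protuberance protein in mammals, was at 11.35, 11.70, 11.36, 11.41 and 11.35 in Adult, against 10.94, 10.72, 11.09, 11.02 and 10.95 in L4, and rose by 0.49 ± 0.09 (adjusted p = 0.000335). It had no dip, with a mean of 10.97 in L4-lethargus and 10.94 in L4. mrpl-18 rose by 0.47 ± 0.08 (adjusted p = 0.000122) and mrpl-48 by 0.37 ± 0.09 (adjusted p = 0.00268). mrps-31 rose by 0.46 ± 0.12 (adjusted p = 0.0053), although its Adult and L4 arrays overlapped. mrpl-45 had a difference of 0.83 ± 0.30 (adjusted p = 0.046) that 12 of 15 omissions ended as a call. The other 4 risers were mrps-16, mrps-18C, mrpl-38 and mrpl-10, by 0.22 to 0.35.

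The 3 fallers were small in size and none was called after centring. mrps-28, of the small subunit, was at 11.15, 10.95, 11, 11.21 and 11.12 in Adult, against 11.48, 11.33, 11.37, 11.30 and 11.37 in L4. All Adult arrays were lower, and it fell by 0.28 ± 0.07 (adjusted p = 0.00319). Its second probe set fell by 0.25 (adjusted p = 0.0308). mrpl-55, a mitochondria-specific protein, was at 10.83, 10.24, 10.75, 10.91 and 10.76 in Adult, against 11.09, 11.05, 10.95, 11 and 11.02 in L4. It fell by 0.32 ± 0.10 (adjusted p = 0.0253), by 0.21 without Adult replicate 2 (adjusted p = 0.022), and lost its call without L4 replicate 1 (adjusted p = 0.0577). mrpl-50 fell by 0.24 ± 0.08 (adjusted p = 0.0319), a call that 6 of 15 omissions ended.

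mrps-5 and mrpl-37, both known for the lengthened life of worms in which they are knocked down, were described in every comparison. mrps-5 was at 11.18, 11.08, 11.23, 11.15 and 11.12 in L4, at 10.88, 11.12, 10.96, 11.20 and 11.13 in L4-lethargus, and at 11.27, 10.86, 11.07, 11.11 and 11.23 in Adult. The stages overlapped throughout. Its differences were -0.10 ± 0.09 for L4-lethargus minus L4, 0.05 for Adult minus L4-lethargus and -0.04 for Adult minus L4, and none was called. Centred, Adult minus L4-lethargus was 0.30 ± 0.09 and was called (adjusted p = 0.0117). mrpl-37 was at 10.23, 10.46, 10.03, 10.11 and 9.93 in L4, at 9.80, 9.81, 9.85, 9.94 and 9.90 in L4-lethargus, and at 10.00, 8.55, 10.05, 10.01 and 10.00 in Adult. With all arrays nothing was called, its L4-lethargus minus L4 difference being -0.29 (adjusted p = 0.715). Without Adult replicate 2 that difference, unchanged at -0.29 ± 0.09, was called (adjusted p = 0.0246), and the Adult mean was 10.02 ± 0.03 (SD, n = 4).

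Several members whose Adult replicate 2 value was low were called on the deposited values only without it. Leaving out an array that is low for them raises their Adult means and narrows the shared spread. The genes were picked for those low values, so the adjusted p-values here are descriptive only. mrpl-20, counterpart of bacterial L20, then fell by 0.32 ± 0.06 in L4-lethargus relative to L4 (adjusted p = 0.000941) and rose by 0.45 ± 0.06 in Adult relative to L4-lethargus (adjusted p = 2.99e-05). With all arrays it was called in none of the 3 comparisons. mrps-22 rose by 0.32 ± 0.06 in Adult relative to L4-lethargus (adjusted p = 0.000673), and mrps-26 by 0.36 ± 0.08 (adjusted p = 0.00253). With all arrays 24 of the 59 members were called in no comparison as deposited, and 14 after centring. The share of all genes called in none was not counted, so these numbers have no background.

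Counts were also made by subunit and by numbering. Of mrpl genes 6 of 34 (17.6%) were lower in L4-lethargus than L4, and of mrps genes 5 of 25 (20%), near the 15.6% of all genes. In Adult relative to L4-lethargus 16 of 34 mrpl (47.1%) and 13 of 25 mrps genes (52%) were higher, with medians of 0.23 and 0.22. Of the 36 members with a bacterial number 19 (52.8%) were higher in Adult than in L4-lethargus, and of the 23 with a mitochondria-specific number 10 (43.5%) were, where 31% of all genes were. Against L4, all 3 fallers (mrpl-50, mrpl-55 and mrps-28) and 6 of the 10 risers had mitochondria-specific numbers. That was 26.1% of the 23 higher and 13% lower, below the 30.8% and 28.7% of all genes. Of the 36 with a bacterial number 4 (11.1%) were higher and 0 lower. Centred, 52.2% and 52.8% of the 2 classes were higher, where 49.3% of all genes were, and 0 were lower in either. These differences between classes were not tested.

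The 3 counterparts of bacterial S18 did not share a pattern of calls. mrps-18.C and mrps-18B were called lower in L4-lethargus than in L4, mrps-18B by 0.24 ± 0.07 (adjusted p = 0.0174). mrps-18C was at 11.25 to 11.39 in L4-lethargus, against 11.23 to 11.33 in L4, a difference of 0.01. It was at 11.50 to 11.74 in Adult and rose there by 0.33 ± 0.06 relative to L4-lethargus (adjusted p = 0.000726). The difference between the 3 genes was not tested. By gene order in the reference annotation, mrps-2 and mrpl-4 were the only members next to each other. mrps-2, counterpart of bacterial S2, was 0.35 ± 0.13 higher in Adult than in L4-lethargus (adjusted p = 0.0486). mrpl-4 differed by 0.01 with all arrays, and by 0.20 ± 0.06 without Adult replicate 2 (adjusted p = 0.0165).

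Other nuclear genes for mitochondrial biology gave context. Of all genes, 15.6% were lower and 16% higher in L4-lethargus than in L4. In Adult 31% were higher and 26.2% lower than in L4-lethargus, and 30.8% higher and 28.7% lower than in L4. These shares, as deposited, are the background for the lists here and below. Of 22 genes of mitochondrial translation and gene expression, 5 were lower and 1 higher in L4-lethargus than in L4 (median -0.17), and 16 were higher and 1 lower in Adult than in L4-lethargus (median 0.44). The cysteinyl-tRNA synthetase gene cars-2 fell by 0.73 and the elongation factor Ts gene tsfm-1 by 0.59 in L4-lethargus. The arginyl-tRNA synthetase gene rars-2 rose by 1.34 and hmg-5, for a mitochondrial DNA packaging protein, by 1.10 in Adult relative to L4-lethargus. Of 16 import genes 6 were lower in L4-lethargus than in L4 (median -0.28), among them tomm-7 and tin-10 by 0.56 and 0.44, and 10 were higher in Adult than in L4-lethargus (median 0.40). Of 13 mitochondrial chaperone, protease and stress response genes 1 was higher and 0 lower in L4-lethargus than in L4 (median -0.20), and 3 were higher and 1 lower in Adult than in L4-lethargus (median 0.13). For Adult minus L4 the medians of the translation and import lists were 0.23 and 0.04, beside 0.03 for the members.

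Some of the 43 oxidative phosphorylation genes encode partners of subunits made by mitochondrial translation. Of the 43 genes 10 were lower in L4-lethargus than in L4 (median -0.16). In Adult relative to L4-lethargus 5 were higher and 4 lower (median -0.06). Against L4, 19 were lower and 4 higher in Adult (median -0.21), with succinate dehydrogenase gene sdha-2 higher by 0.83 and ucr-2.3 by 0.70. Of 75 cytosolic ribosomal protein genes 3 were lower in L4-lethargus than L4 (median -0.11), and 2 were higher and 2 lower in Adult than L4-lethargus (median -0.01). After centring 63 of the 75 (84%) were higher in Adult than L4-lethargus, and 18 of 43 oxidative phosphorylation genes (41.9%) were, where 53.7% of all genes were. For Adult minus L4-lethargus the mitochondrial ribosomal median as deposited, 0.22, was above the -0.01 of cytosolic ribosomal and the -0.06 of oxidative phosphorylation genes. Centring shifts every gene alike and so cannot change this order (0.48, against 0.25 and 0.20). No test between lists was made. Genes of mitochondrial DNA itself were not analysed here.

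**Figure D4:**
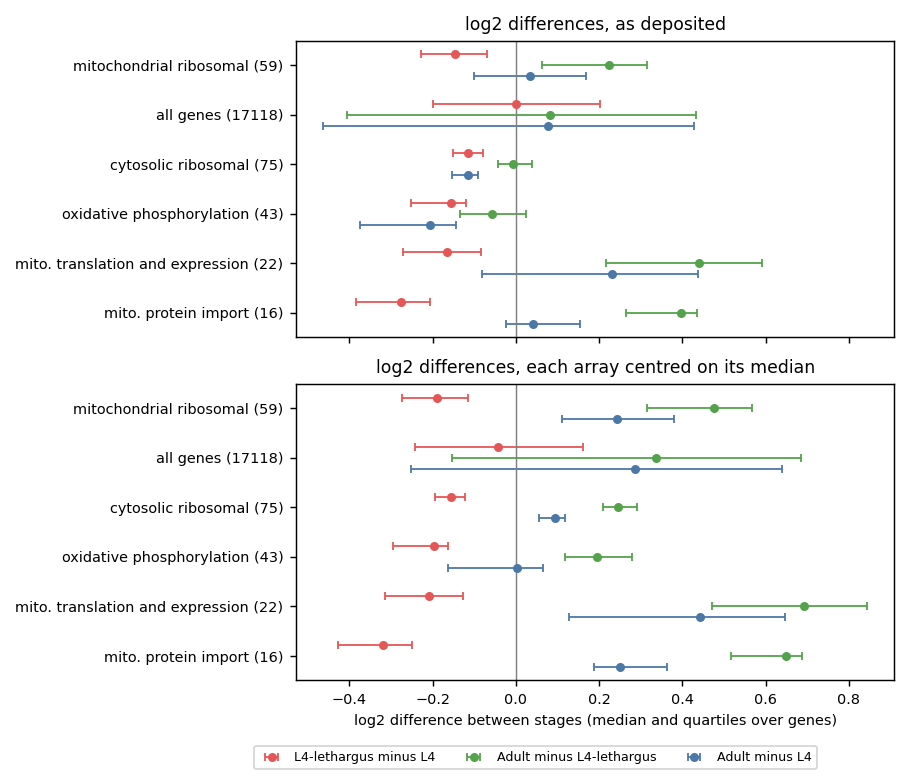
Median (points) and quartiles (bars) over genes of the log2 difference for each comparison, as deposited (upper) and with arrays centred (lower), with gene numbers in brackets. The mitochondrial ribosomal medians of -0.15, 0.22 and 0.03 as deposited lie beside -0.16, -0.06 and -0.21 for oxidative phosphorylation genes.

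Markers of whole tissues moved between the same stages. Of 20 germline and oocyte markers 13 were higher and 0 lower in L4-lethargus than in L4 (median 1.14), opposite to the members, and 18 were higher in Adult than in L4-lethargus (median 0.84). Their median per array was 9.11 to 10.00 in L4, 10.77 to 11.13 in L4-lethargus and 11.94 to 12.08 in Adult. Of 10 neuron markers none was called between L4-lethargus and L4, and 8 were lower and 1 higher in Adult than in L4-lethargus (median -1.14). Of 10 body wall muscle markers 4 were lower in L4-lethargus than in L4 and 4 in Adult than in L4-lethargus. Among the epidermis and cuticle markers 9 of 11 were lower and 1 higher in L4-lethargus than in L4. Of 9 pharynx markers 5 were higher and 0 lower in L4-lethargus than in L4 (median 0.77), and 0 higher and 4 lower in Adult than in L4-lethargus (median -0.69). Of 10 sperm markers 1 was higher and 4 lower in L4-lethargus than in L4, and 2 were higher and 5 lower in Adult than in L4-lethargus. Of 9 intestine markers 4 were higher and 2 lower in L4-lethargus than in L4, and 0 higher and 6 lower in Adult than in L4-lethargus. The part of tissue make-up in the mitochondrial ribosomal differences was not tested.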

How the data were processed

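Per the submitters' processing notes the arrays were processed with RMA (version not given in the sources used here), and the authors deposited log2 expression values for 22625 probe sets on 15 arrays. RMA forces arrays to a common distribution before summarising probes, so differences are relative to the other genes on the array. Of these, 77 control probe sets were left out. Probe sets were named from GEO's platform annotation: 20766 had a single gene, 887 several and 895 none, and 20701 matched the reference by gene ID. Stage means were fitted to all 15 arrays with limma 3.58.1 (lmFit, eBayes) in R 4.3.3, and p-values were multiplied by 2 and adjusted by Benjamini-Hochberg over 22548 probe sets. Centring subtracted each array's median. The design's R/maanova permutation test was not run, and limma permutation p-values (100 regroupings) were an alternative.

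Named members were, per comparison, up to 6 called rises and 6 called falls by size, plus mrps-5, mrpl-37 and the members with the highest and lowest mean; others (among them mrpl-12, mrpl-20, mrpl-24, mrpl-30, mrps-22, mrps-26 and the S18 and S2 counterparts) were added after their values were seen. The members and lists were chosen with earlier results of these data known. Adjusted p-values reflect the spread among 5 pools per stage, and the number of arrays limits the precision. Of the 59 members 14 were read from probe sets that can share sequence with other transcripts, and 57 had a mean at or above 6.55, the limit of the dim-probe filter. The scripts were checked on simulated data, with changes for L4-lethargus minus L4 placed in 200 of 22548 probe sets. Recovery was 0% at 1.2-fold, 20% at 1.35-fold, 68% at 1.5-fold and 98% at 2-fold. Many more probe sets were called in the real data, so these shares need not hold there. Small differences can therefore go uncalled. Labels number the replicates 1 to 5 in each stage, but same-numbered arrays did not deviate together: their residual correlations ran from -0.24 to 0.13 (median -0.07), against -0.20 to 0.24 (median 0.02) for other pairs. Per the labels, 1 sample per stage had been left out on RNA quality, and the RNA integrity number was above 5 at each stage.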

Additional observations from a re-analysis of the deposited data

Results flagged for a closer look

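Single arrays far from the other 4 of their stage were looked for in the named members and in the per-array median of all 59 members, in 57 groups of 5. Chance alone flags about 1 in 20 groups, and 9 groups had such an array. Adult replicate 2 accounted for 7 of them. It was low for mrpl-37 (8.55, others 10.00 to 10.05), mrpl-44 (10.98, others 11.37 to 11.48), mrpl-55 (10.24, others 10.75 to 10.91), mrps-14 (12.18, others 12.49 to 12.56) and mrps-27 (10.00, others 10.33 to 10.38). It was high for mrpl-40 (11.70, others 11.35 to 11.41). The median over the members was 10.78 on Adult replicate 2 and 10.97 to 11.02 on the other Adult arrays. The remaining 2 were mrpl-45 on L4-lethargus replicate 1 (5.72, others 6.19 to 6.38) and the median over the members on L4 replicate 2 (10.83, others 10.92 to 10.94). The cause was not tested.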

How the results depend on the processing

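Under 29 alternatives 222 summary values stayed within 1.5 times the count or 1 SD, 31 moved further and 2 turned sign. Of the single-gene values 799 kept direction and side of the threshold, 65 lost the call, 7 gained it and 15 turned sign. The count lower in L4-lethargus than L4 (11) was 17 centred, 5 under cyclic loess, 2 scaled to the hybridisation controls, and 5 to 20 with each array left out. Adult minus L4-lethargus, 29 higher, gave 45 centred, 13 under cyclic loess and 44 on hybridisation controls, and its median of 0.223 was 0.476, 0.097 and 0.499 there and 0.145 after quantile normalization again. The count lower there (0) was 2 under quantile normalization again, cyclic loess or p-values not doubled. With each array left out it was 0 to 1, against 24.5% to 27.6% of all genes. Adult minus L4, 10 higher, gave 31 centred, 36 on hybridisation controls and 7 to 18 with each array left out (background 28.2% to 31.6%). It gave 19 (32.2%, background 31.1%) without Adult replicate 2 and L4-lethargus replicate 1, an alternative chosen after seeing the data. The 3 lower for Adult minus L4 were 0 centred or on hybridisation controls, and 7 under quantile normalization again or cyclic loess. With each array left out they were 1 to 3 (background 27.4% to 29.8%). The median of 0.034 was 0.244 centred and 0.378 on hybridisation controls, and turned to -0.039 under quantile normalization again and -0.074 under cyclic loess. Hybridisation-control scaling moved the median of all genes itself to 0.069, 0.358 and 0.42 in the 3 comparisons, and the cause of the shifts was not tested. The share of all genes called was not counted under hybridisation controls, cyclic loess, quantile normalization again, or undoubled, unadjusted or permutation p-values. Member counts under those settings therefore stand without a background.

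Single genes that turned sign were uncalled or lost their call: mrps-14, L4-lethargus minus L4, 0.061 under cyclic loess and 0.05 on hybridisation controls; mrpl-37, Adult minus L4-lethargus, 0.116 centred, 0.139 on hybridisation controls, 0.141 without both arrays, and -0.22 to 0.156 with each array left out; mrps-5, Adult minus L4-lethargus, -0.032 under quantile normalization again and -0.078 under cyclic loess, and, Adult minus L4, 0.165 centred, 0.299 on hybridisation controls, 0.017 without both arrays, and -0.086 to 0.017 with each array left out. On hybridisation controls mrpl-50, mrpl-55 and mrps-28 were 0.099, 0.021 and 0.059 for Adult minus L4. Calls made in all alternatives that kept the gene were mrpl-19 and mrpl-50 of the 11 lower in L4-lethargus, 12 of the 29 higher in Adult than L4-lethargus, 7 of the 10 higher in Adult than L4 and 0 of the 3 lower. With replicate number as a block, 6 members were lower in L4-lethargus than L4 and 24 higher in Adult than L4-lethargus. For Adult against L4, 9 were higher and 2 lower. The share of all genes was not counted with the block, and samples share only a number.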
